A study of Marmota monax with 203 samples.

Results

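The livers of the placebo woodchucks were biopsied while dosing was under way, at study week 15, and again at the end of the study, at week 23. All placebo animals with a biopsy at both weeks were taken, which gave 8 animals, 16 biopsies and 20 sequencing runs of the 24 animals, 164 biopsies and 203 runs in all. The 4 males were animals 1001, 1005, 1008 and 1011, and the 4 females were animals 1015, 1016, 1019 and 1021. For each gene the change was the level at week 23 minus the level at week 15 in the same animal. The sample labels count weeks from 1 and write these weeks as 16 and 24. Label week 24 has an added T in all of these animals except 1001. The labels do not give the meaning of the T, and its part in the changes was not tested.

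In the study, woodchucks with chronic infection by woodchuck hepatitis virus (WHV) were given woodchuck interferon-alpha (wIFN-α) or placebo, and RNA of serial liver biopsies was sequenced. The animals had been infected as newborns, at 3 days of age, and were dosed as adults. Placebo animals received the vehicle on the same schedule, 3 times a week for 15 weeks, and no interferon. The week 15 biopsy was taken 6 hours after a dose and the week 23 biopsy 8 weeks after dosing had ended, so that the study week, the end of dosing and handling, and the time after a dose cannot be told apart in this comparison.

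The liver makes fatty acids from acetyl units when carbohydrate is plentiful, in a pathway that runs from ATP citrate lyase and acetyl-CoA carboxylase to fatty acid synthase and the desaturases and elongases that finish the chains. Hepatocytes also hold the cytochrome P450 and conjugating enzymes that clear drugs and hormones, the urea cycle, and the synthesis of bile acids. Between the hepatocytes lie Kupffer cells and lymphocytes, which increase in chronic viral hepatitis. WHV is a close relative of hepatitis B virus and replicates in hepatocytes.

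The biopsies were first checked for other tissue. MYH2, a myosin of fast skeletal muscle, was at 236, 694 and 1244 CPM (counts scaled to 1000000 gene reads) in the week 15 biopsies of animals 1011, 1015 and 1021. It was at most 3.07 CPM in the other 5 week 15 biopsies and at most 1.06 CPM in all 8 week 23 biopsies. With 100 CPM as the limit, 3 week 15 biopsies and no week 23 biopsy held skeletal muscle. The 20 skeletal muscle genes together took 0.0210% (lowest), 0.0382% (median) and 1.13% (highest) of the gene reads at week 15, and 0.0264%, 0.0356% and 0.0427% at week 23. None of the 20 was higher at week 23, their median log2 change was -1.63, and the 1 that passed the test was TNNC2, a troponin of fast muscle, at -5.66 ± 1.71 (SE, adjusted p = 0.0260). TNNC2 was at -4.98 without animal 1011 (adjusted p = 0.0756) and at -1.78 by DESeq2 (adjusted p = 0.297). It did not pass the filter on low counts without 1005, 1008, 1015 or 1021, and it was higher at week 23 in 3 of the 8 animals. None of the list was called without each of 1008, 1011, 1015 and 1021, or with the deepest run of each biopsy. By limma-voom 13 of the 20 were lower, without the animal pairing 16 and with all weeks in 1 fit 9. Over all genes 7.9% were lower in the main test. Without animals 1011, 1015 and 1021 the median of the list was 0.00. MYH2 itself was at -3.28 ± 2.21 (adjusted p = 0.261) with all 8 animals. The 10 genes of skin and squamous epithelium took 0.253% of the gene reads in the week 15 biopsy of animal 1021. Their median share at week 15 was 0.0140%, and their highest share at week 23 was 0.01675%.

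The defining genes of hepatocytes were high in all 16 biopsies. The 12 hepatocyte genes, such as albumin and the apolipoproteins, took 7.82% (lowest), 8.86% (median) and 10.5% (highest) of the gene reads at week 15, and 6.95%, 10.7% and 14.5% at week 23. Where 17.7% of all genes tested were called, 1 of these 12 was, RBP4, the plasma carrier of retinol. Its change was 0.71 ± 0.19 (adjusted p = 0.0151), and 0.68 without the 3 animals with muscle biopsies (adjusted p = 0.108). In bulk biopsies fewer cells of a type and less RNA per cell cannot be told apart.

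The gene reads ranged from 14739824 to 52927321 per biopsy. The 2 runs of the week 15 biopsy of animal 1008 differed by a chi-square of 140 per degree of freedom over genes, where the 3 other repeated biopsies gave 1.97 to 3.72. Of 13808 genes with at least 1 CPM, 301 (2.18%) differed over 2-fold between these 2 runs. From each run the mean of the other animals at week 15 was then removed, and from each week 11 biopsy the mean of the animals at week 11. The values left of both runs correlated across genes with those of animal 1008 at week 11 (0.737 and 0.793). With those of no other animal did they correlate above -0.0242 and -0.0641. Removing a mean over these same animals in itself lowers the correlations between animals. Levels of 5 genes were compared between the runs. SCD was at 16250 and 16960 CPM, CYP2B6 at 467 and 525 CPM, FADS2 at 52.8 and 48.5 CPM, NPAS2 at 2.65 and 3.05 CPM and MYH2 at 4.25 and 0.999 CPM. The runs were summed, and counts without animal 1008 are given where they move by over 1.5 times.

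WHV RNA did not differ beyond the spread between animals. Virus reads were 1.12% (lowest), 2.47% (median) and 2.87% (highest) of gene reads at week 15 and 1.11%, 2.41% and 3.17% at week 23, and the 2 weeks overlapped over nearly their whole range. The mean log2 ratio was 0.07 ± 0.60 (SD, n = 8), with 4 animals higher and 4 lower (exact two-sided sign-flip permutation test, p = 0.859, where 0.00781 is the smallest p it allows). The highest ratio, 1.41, was that of animal 1021, whose week 15 biopsy held muscle. Without the 3 animals with muscle biopsies the mean was -0.12 ± 0.21 (SD, n = 5, exact permutation p = 0.312, smallest possible 0.0625).

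**Figure D1:**
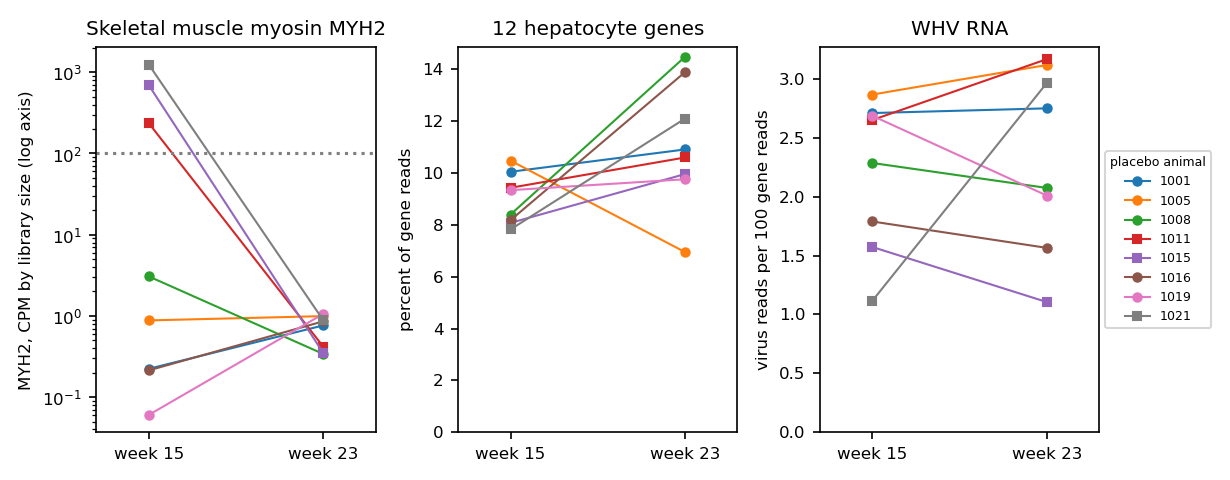
Skeletal muscle (MYH2, CPM, log axis), the summed share of the hepatocyte genes (percent of gene reads) and WHV RNA (virus reads per 100 gene reads) in the week 15 and week 23 biopsies of the 8 placebo animals, with 1 line per animal. Squares are the animals with a muscle biopsy and the dotted line is at 100 CPM. MYH2 passes 100 CPM in 3 week 15 biopsies and in no week 23 biopsy, and virus reads lie between 1.11 and 3.17 per 100 gene reads.

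Of 14966 genes tested, 2651 (17.7%) passed both limits, an adjusted p under 0.05 and a change of over 1.5-fold, of which 1468 (9.81%) were higher and 1183 (7.9%) lower at week 23. An adjusted p under 0.05 at any fold was reached by 5362 genes. In 1615 of the called genes all 8 animals moved in the called direction, and in 2434 at least 7 did. At week 23 all 8 values lay above all 8 week 15 values in 125 genes (0.835%) and below them in 356 (2.38%). Without the 3 animals with muscle biopsies 2716 genes were called, of which 2016 were shared with the full comparison (76% of its calls and 74.2% of theirs). Animals 1001 and 1021, which were sequenced in lane 6 at both weeks, both moved in the called direction in 2170 of the 2651 genes. The calls rest on these 2 animals as well, so this count is no test of the lane.

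Genes of fatty acid synthesis were the list with the lowest median of all 42, apart from skeletal muscle. Of the 18 tested, 11 fell and 1 rose, with a median log2 change of -1.48 where all genes tested had 0.01 and 7.9% were lower. The 11 were ACLY, ACACA, FASN, ELOVL6, SCD, FADS1, FADS2, ME1, THRSP, PNPLA3 and ACSS2, which together cover the supply of acetyl-CoA and NADPH, chain synthesis, elongation and desaturation. The count of lower genes was 5 without animal 1019, 7 without each of animals 1005, 1008, 1016 and 1021, and 14 without animal 1011 or without the 3 animals with muscle biopsies.

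FADS2, the delta-6 desaturase of polyunsaturated fatty acids, was at 39.0 CPM (lowest), 102 CPM (median) and 119 CPM (highest) at week 15 and at 5.78, 9.88 and 36.4 CPM at week 23. The weeks did not overlap, FADS2 was lower in 8 of 8 animals, and its log2 change was -2.81 ± 0.31 (adjusted p = 0.000884). SCD, the stearoyl-CoA desaturase that makes oleate and one of the most abundant liver messengers here, was between 10821 and 18181 CPM in all week 15 biopsies and between 431 and 13982 CPM at week 23. The week 23 values of SCD split widely. Animals 1005, 1008, 1016 and 1019 were at 577, 431, 921 and 745 CPM, animals 1015, 1021 and 1011 were at 3860, 6801 and 8590 CPM, and animal 1001 was at 13982 CPM after 13216 CPM at week 15. SCD was thus lower in 7 of 8 animals and the weeks overlapped through animal 1001 alone (log2 change -2.79 ± 0.69, adjusted p = 0.0113).

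ACSS2, which makes acetyl-CoA from acetate, changed by -2.31 ± 0.63 (adjusted p = 0.0173), from a median of 1451 to 386 CPM. ELOVL6, which lengthens palmitate to stearate, changed by -2.28 ± 0.63 (adjusted p = 0.0179), from a median of 1549 to 342 CPM. Both were lower in 6 of 8 animals, and without animal 1019 neither passed the test (ACSS2 -2.10, adjusted p = 0.0509, and ELOVL6 -2.0, adjusted p = 0.0512). The 1 gene of the list that rose was PPARG, the nuclear receptor of fat storage, at 1.03 ± 0.16 (adjusted p = 0.00194), higher in 8 of 8 animals. PPARG was named after its values were seen. NR1H3, the liver X receptor alpha that regulates lipid synthesis, rose by 0.73 ± 0.14 (adjusted p = 0.00476), from 123 to 199 CPM at week 15 to 162 to 473 CPM at week 23.

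**Figure D2:**
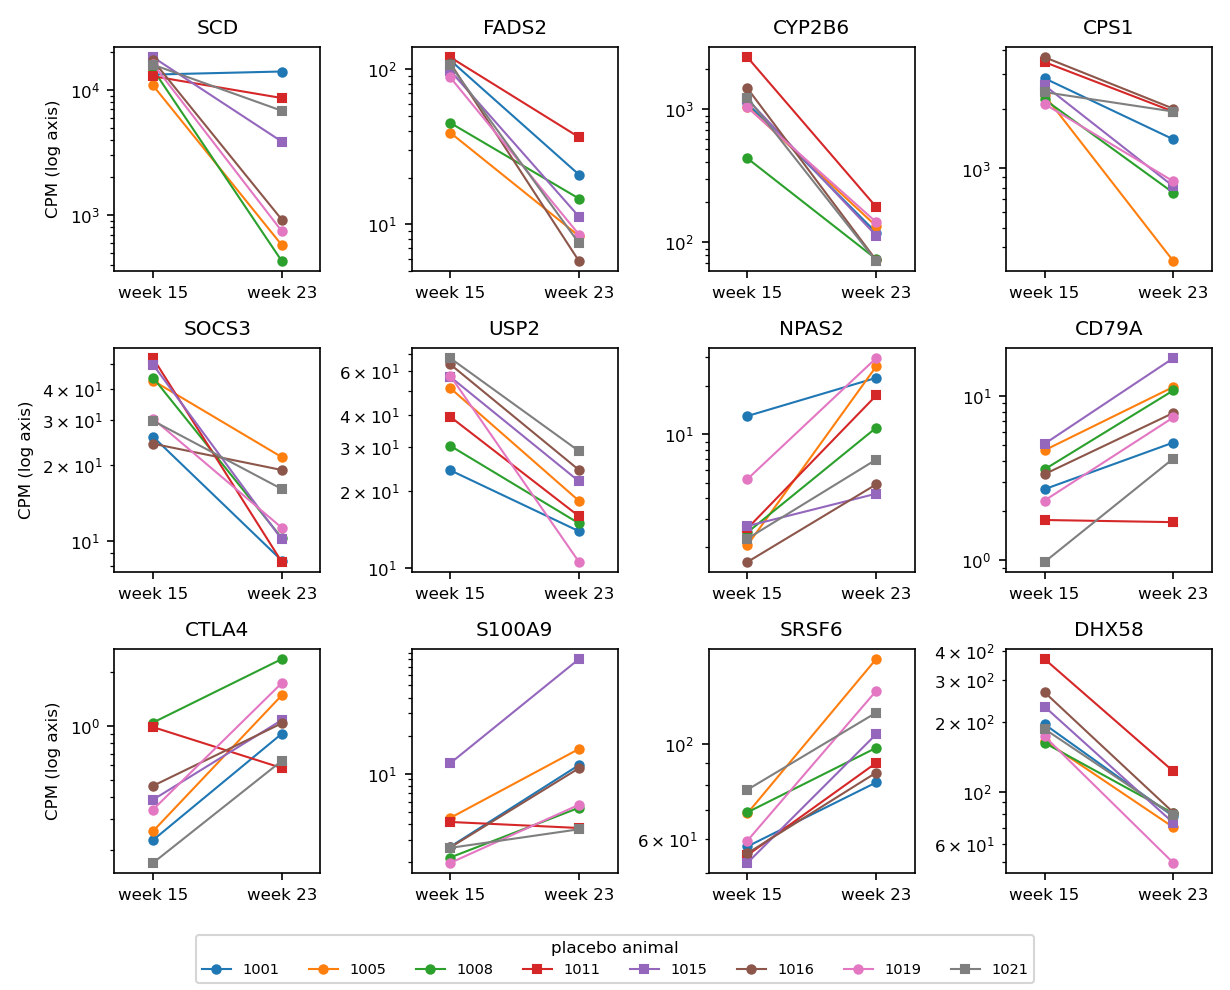
Levels of single genes (CPM, log axis) at weeks 15 and 23, with 1 line for each of the 8 placebo animals. SCD ends between 431 and 13982 CPM at week 23, while CYP2B6 and FADS2 do not overlap between the weeks.

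Of the 22 genes of cholesterol synthesis and sterol regulation, 5 fell and none rose, with a median of -0.41, where 7.9% of all genes fell. SQLE, the squalene epoxidase, was at -1.31 ± 0.45 (adjusted p = 0.0421), and it did not pass the test without any 1 of animals 1005, 1008, 1015, 1016, 1019 and 1021 (-1.34, -1.0, -1.33, -1.0, -1.28 and -1.22). The count of the list was 1 without each of animals 1008, 1016 and 1019, 2 without each of 1005 and 1015, and 9 without 1011.

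Among 26 genes of cytochrome P450, the enzymes that oxidise drugs, steroids and fatty acids, 6 fell and none rose (median -0.35). Over all genes 7.9% fell. CYP2B6, a drug-metabolising enzyme, was at 429 CPM (lowest), 1152 CPM (median) and 2471 CPM (highest) at week 15 and at 72.4, 116 and 185 CPM at week 23. Each of the 8 animals fell, from -4.29 in animal 1016 to -2.51 in animal 1008, without overlap (log2 change -3.39 ± 0.22, adjusted p = 0.000137). CYP2A6, the coumarin hydroxylase, did not overlap either, with 370, 696 and 1915 CPM at week 15 against 42.3, 114 and 236 CPM at week 23 (-2.88 ± 0.35, adjusted p = 0.00100). CYP2C8 fell by 0.90 ± 0.15 (adjusted p = 0.00280) and CYP2R1, a vitamin D 25-hydroxylase, by 0.97 ± 0.22 (adjusted p = 0.00770). Reads of the CYP2A and CYP2B genes may be shared with near copies listed under other human names, so the split among copies is uncertain. Without animal 1021 and without all 3 animals with muscle biopsies 8 of the list fell, and 4 fell without 1008 or 1016.

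Of 24 conjugation enzymes, which make such products soluble, 6 fell and 2 rose (median -0.19), where 7.9% of all genes fell and 9.81% rose. NNMT, which methylates nicotinamide, fell from a median of 51.2 to 13.2 CPM in 7 of 8 animals (-1.97 ± 0.33, adjusted p = 0.00265). UGT2B15, a glucuronosyltransferase of androgens, fell in 8 of 8 animals, from 102 to 312 CPM at week 15 to 33.3 to 132 CPM at week 23 (-1.24 ± 0.23, adjusted p = 0.00356). SULT1A1, a phenol sulfotransferase, rose in 8 of 8 animals, from a median of 64.9 to 164 CPM (1.17 ± 0.16, adjusted p = 0.00146). Without single animals between 4 and 8 of the list fell and 2 rose.

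Of 22 genes of bile acid handling 5 fell and 3 rose (median -0.25), where 7.9% of all genes fell and 9.81% rose. The lower ones held the canalicular export pumps ABCB11 and ABCC2, the basolateral pump ABCC3, the sterol 12-alpha-hydroxylase CYP8B1, and KLB, the co-receptor for the intestinal hormone that restrains bile acid synthesis. ABCB11 went from 285 to 648 CPM at week 15 to 57.9 to 419 CPM at week 23 (-1.19 ± 0.24, adjusted p = 0.00509), ABCC3 changed by -1.20 ± 0.18 (adjusted p = 0.00181) and CYP8B1 by -1.14 ± 0.14 (adjusted p = 0.00102), each lower in 8 of 8 animals with overlapping weeks. KLB changed by -1.42 ± 0.31 (adjusted p = 0.00691) and was lower in 7 of 8. The 3 that rose were SLCO1B1, SLCO1B3 and NR0B2, 2 uptake carriers and a nuclear repressor, named after their values were seen. Without the 3 animals with muscle biopsies 1 of the list rose and 6 fell, and without animal 1021 alone 2 rose and 5 fell.

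Of 21 genes of the urea cycle and amino acid breakdown, 8 fell and 2 rose (median -0.35). Over all genes 7.9% fell and 9.81% rose. CPS1, which commits ammonia to the urea cycle, fell without overlap, from 2120, 2534 and 3658 CPM at week 15 to 340, 1132 and 2007 CPM at week 23 (-1.29 ± 0.24, adjusted p = 0.00384). BHMT, which remethylates homocysteine, fell in 8 of 8 animals from a median of 1073 to 420 CPM (-1.42 ± 0.27, adjusted p = 0.00421). SERPINA7, the thyroxine-binding globulin, stood in the list without being an enzyme of it, and rose without overlap from 83.2 to 227 CPM to 244 to 527 CPM (1.25 ± 0.18, adjusted p = 0.00151). In animal 1021 SERPINA7 rose by 2.49. Without animals 1005 and 1015 in turn, 5 of the list fell each time.

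ACMSD, which diverts tryptophan breakdown away from NAD, was among 3 of 12 genes of the kynurenine pathway and NAD synthesis that fell, and none rose. It went from 58.6, 94.0 and 231 CPM to 22.1, 24.2 and 70.9 CPM, lower in 8 of 8 animals (-1.83 ± 0.31, adjusted p = 0.00262). The others were QPRT, which makes a precursor of NAD, and NNMT. Over all genes 7.9% fell. Without animal 1005 or 1008, 2 of the 12 fell.

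Genes that glucocorticoids induce fell in 6 of 13 cases and rose in none (median -0.38), where 7.9% of all genes fell. KLF9, a transcription factor that responds to glucocorticoids and thyroid hormone, was at 83.5, 109 and 126 CPM at week 15 and at 27.9, 52.0 and 69.0 CPM at week 23, without overlap (-1.06 ± 0.14, adjusted p = 0.00125). FKBP5, a co-chaperone of the glucocorticoid receptor, was lower in 8 of 8 animals (-0.86 ± 0.19, adjusted p = 0.00692), but was at -0.63 (adjusted p = 0.0656) without the animals with muscle biopsies. Without those animals 2 of the 13 fell, without 1008 or 1015 3 fell, and without each other animal 4 to 6.

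Of 13 metallothionein and oxidative stress genes 6 fell and none rose, where 7.9% of all genes fell. But this count was 1 without animal 1008 and 3 without the animals with muscle biopsies or without either of 1005 and 1015. TXNRD1, the cytosolic thioredoxin reductase, fell without overlap from 65.0, 68.1 and 91.1 CPM to 25.3, 36.4 and 47.0 CPM (-1.0 ± 0.12, adjusted p = 0.00100). The metallothionein MT2A changed by -1.71 ± 0.51 (adjusted p = 0.0252), and missed the threshold without 1008 (-1.61, adjusted p = 0.0571), without 1015 (-1.55, adjusted p = 0.0701) and without the animals with muscle biopsies (-1.16, adjusted p = 0.174).

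Of 23 acute phase and iron genes 4 fell and none rose, where 7.9% of all genes fell. Without the animals with muscle biopsies or without 1015 alone 2 fell. SOCS3, the feedback inhibitor of interleukin-6 and interferon signalling, did not overlap between the weeks. It was at 24.2, 36.7 and 52.8 CPM at week 15 and at 8.26, 10.8 and 21.5 CPM at week 23 (-1.54 ± 0.24, adjusted p = 0.00198). SAA2, a serum amyloid A, changed by -1.75 ± 0.44 (adjusted p = 0.0125), lower in 8 of 8 animals, with 12.6 to 376 CPM at week 15 and 8.44 to 33.1 CPM at week 23. The related entries SAA2-SAA4 (-3.81 ± 0.51, adjusted p = 0.00133) and SAA3P (-3.29 ± 0.59, adjusted p = 0.00315) stood among the 10 lowest of the called genes that averaged 1 CPM or more. Serum amyloid A genes are near copies, and how their reads were divided is uncertain.

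**Figure D3:**
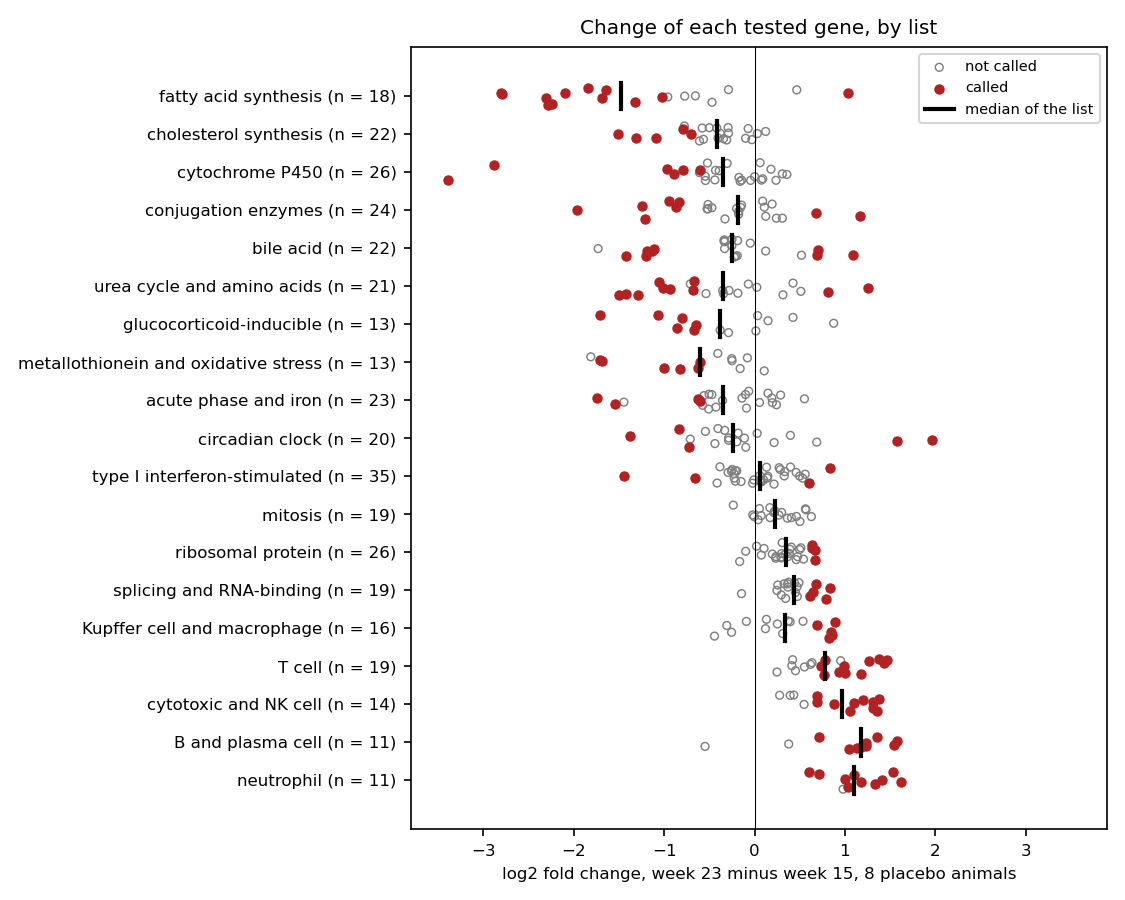
Log2 change from week 15 to week 23 of each tested gene, by gene list, in the 8 placebo animals. Filled points are called genes, open points are not called, and bars are list medians, which among the 19 lists drawn run from -1.48 in fatty acid synthesis to 1.17 in the B and plasma cell list, and skeletal muscle is not drawn.

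Genes of lymphocytes and neutrophils rose, where 9.81% of all genes did. Of 19 T cell genes 11 rose and none fell (median 0.78), of 14 cytotoxic and NK cell genes 10 rose and none fell (median 0.97), of 11 B and plasma cell genes 9 rose and none fell (median 1.17), and of 11 neutrophil genes 10 rose and none fell (median 1.10). Without the 3 animals with muscle biopsies these counts were 11, 7, 9 and 8. Without single animals they were 8 to 15 for T cells, 8 to 10 for cytotoxic and NK cells, 9 for B cells and 8 to 11 for neutrophils. As shares of all gene reads, the T cell genes took 0.00569% (lowest), 0.00877% (median) and 0.0135% (highest) at week 15 and 0.00856%, 0.0123% and 0.0309% at week 23. The neutrophil genes took 0.00667%, 0.0103% and 0.0128% against 0.0114%, 0.0160% and 0.0581%. The share of the B and plasma cell list went from a median of 0.0474% to 0.0384%. XBP1, a transcription factor of secretory cells that hepatocytes express as well, took a median of 93.1% of the reads of this list at week 15 and 85.1% at week 23, and was at -0.55 ± 0.23 (adjusted p = 0.0831).

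CD79A, part of the B cell receptor, was at 0.977, 3.02 and 5.11 CPM at week 15 and at 1.71, 7.64 and 17.0 CPM at week 23, higher in 7 of 8 animals with some overlap (1.35 ± 0.20, adjusted p = 0.00164). MS4A1, the B cell antigen CD20, rose in 7 of 8 animals from a median of 0.805 to 2.09 CPM (1.54 ± 0.37, adjusted p = 0.00998). Animal 1011 was the exception in both. These genes were at a few CPM or less, so that each value rests on few reads.

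ZAP70, the kinase of the T cell receptor, rose from 1.02, 1.59 and 3.29 CPM to 1.71, 4.24 and 8.42 CPM (1.27 ± 0.24, adjusted p = 0.00367), and CD5 and CD6, surface regulators of T cells, by 1.44 ± 0.26 (adjusted p = 0.00321) and 1.37 ± 0.26 (adjusted p = 0.00407). CTLA4, an inhibitory receptor, was higher in 7 of 8 animals (1.47 ± 0.32, adjusted p = 0.00726), with the exception of animal 1011. TBX21, the transcription factor of Th1 and NK cells, rose in 8 of 8 animals (1.31 ± 0.20, adjusted p = 0.00183). FASLG, the death ligand of cytotoxic cells, rose in 7 of 8 (1.35 ± 0.26, adjusted p = 0.00404). EOMES, of the same family as TBX21, rose by 1.38 ± 0.27 (adjusted p = 0.00470), and KLRK1, the activating receptor NKG2D, by 1.31 ± 0.24 (adjusted p = 0.00356).

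S100A9 and S100A8, the calprotectin subunits of neutrophils and monocytes, rose by 1.53 ± 0.28 (adjusted p = 0.00364) and 1.42 ± 0.32 (adjusted p = 0.00853), each in 7 of 8 animals. S100A9 was at 1.97, 2.63 and 12.1 CPM at week 15 and at 3.64, 8.37 and 80.7 CPM at week 23. The granule genes CAMP and MPO rose by 1.62 ± 0.24 (adjusted p = 0.00166) and 1.34 ± 0.23 (adjusted p = 0.00265) in 8 of 8 animals. Of 16 Kupffer cell and macrophage genes 5 rose and none fell (median 0.34), where 9.81% of all genes rose. The 5 were C1QA, C1QB, C1QC, FCGR3A and LYZ. LYZ, lysozyme, went from a median of 28.5 to 58.1 CPM (0.86 ± 0.18, adjusted p = 0.00546), and C1QA, a complement subunit that Kupffer cells make, from 63.9 to 96.8 CPM (0.84 ± 0.16, adjusted p = 0.00434). The 6 erythrocyte genes, which follow the blood in a biopsy, had a median of 0.50, and 0 of them was called by edgeR with all 8 animals or by DESeq2, though 3 rose without the animals with muscle biopsies and without 1011 alone. HBA2 and HBA1, near-identical alpha globins whose reads may be shared, were at 1.07 ± 0.45 and 0.95 ± 0.42 (adjusted p = 0.0823 and 0.0938). By limma-voom 2 of the erythrocyte list rose. As a share of gene reads this list went from a median of 0.0136% at week 15 to 0.0312% at week 23. Its share was lower at week 23 in animal 1011 alone (0.00621% and then 0.00295%). The part of blood in the immune gene values was not tested.

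Interferon-stimulated genes had a median change of 0.07 in the placebo animals. Of 35 tested, 2 rose, 2 fell and 31 were not called, where 9.81% of all genes rose and 7.9% fell. DHX58, a regulator of RNA sensing, fell without overlap from 162, 190 and 371 CPM to 49.6, 78.9 and 122 CPM (-1.44 ± 0.11, adjusted p = 0.000284). IFIH1, the RNA sensor MDA5, changed by -0.66 ± 0.13 (adjusted p = 0.00465), and by -0.56 without animal 1019, below a fold change of 1.5. IFI27 and OAS1 were at 0.61 ± 0.12 (adjusted p = 0.00417) and 0.83 ± 0.25 (adjusted p = 0.0262). IFI27 was at 0.55 without 1005 and without 1019, again below that fold, and OAS1 missed the threshold without 1005, 1008, 1015 and 1016 in turn (0.73, 0.74, 0.81 and 0.81). RSAD2, the antiviral enzyme viperin, was between 18.5 and 31.6 CPM at week 15 and between 17.8 and 37.4 CPM at week 23. Of 18 interferon-gamma inducible genes 1 rose, CD74, the MHC class II chaperone, by 0.83 ± 0.21 (adjusted p = 0.0122), while 8 rose without animal 1011, 5 without the animals with muscle biopsies, 3 without 1001 and 2 without 1021. CD274, the checkpoint ligand PD-L1, rose in 8 of 8 animals from a median of 2.38 to 3.27 CPM (0.70 ± 0.17, adjusted p = 0.0113).

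In the circadian clock list 2 genes of 20 rose and 3 fell, and 15 were not called, with changes from -1.38 to 1.96. Over all genes 9.81% rose and 7.9% fell. NPAS2 and ARNTL, partners in the activator of the clock, rose by 1.96 ± 0.31 (adjusted p = 0.00214) and 1.58 ± 0.35 (adjusted p = 0.00770). NPAS2 was higher in 8 of 8 animals, at 1.61, 2.53 and 13 CPM at week 15 and 4.28, 14.2 and 29.7 CPM at week 23. Its repressor CRY2 and the output gene USP2 fell in 8 of 8 animals, by 0.84 ± 0.12 (adjusted p = 0.00160) and 1.38 ± 0.15 (adjusted p = 0.000936). PER3, a further clock repressor named after its values were seen, fell as well. The hour of the day of each biopsy is not given in the sources used here. Without the animals with muscle biopsies 6 of the list fell, without 1021 alone 4, and without each of the other 7 animals 2.

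Of 19 genes of mitosis 0 were called by edgeR or DESeq2 (median 0.22), where edgeR called 9.81% of all genes higher and 7.9% lower. But 4 of the 19 rose without animal 1021 (median 0.60), 1 without 1001 and 2 without the animals with muscle biopsies (median 0.61). KIF11, a spindle motor, was at 0.50 ± 0.19 (adjusted p = 0.0573). Among 18 genes of DNA replication and G1/S, CCNE1 fell in 8 of 8 animals from a median of 2.87 to 0.975 CPM (-1.54 ± 0.21, adjusted p = 0.00133) and CCNE2 rose in 8 of 8 from 0.385 to 0.765 CPM (0.99 ± 0.23, adjusted p = 0.00957), so that the 2 forms of cyclin E moved in opposite directions. ESR1, the estrogen receptor, fell in 8 of 8 from 8.46 to 3.81 CPM (-0.88 ± 0.13, adjusted p = 0.00186). HSPD1, a mitochondrial chaperone, was the 1 of 15 heat shock genes called, at -0.79 ± 0.17 (adjusted p = 0.00690), where 7.9% of all genes fell.

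Genes of fatty acid oxidation were mostly not called, with 2 of 26 higher and 2 lower. Over all genes 9.81% were higher and 7.9% lower. FABP1, the fatty acid carrier of the liver, rose from a median of 431 to 869 CPM (0.73 ± 0.18, adjusted p = 0.0116), and CREB3L3, a transcription factor of the fasted liver, from 40.9 to 92.5 CPM (1.07 ± 0.21, adjusted p = 0.00480), each in 7 of 8 animals. PDK4, which shuts the entry of pyruvate into oxidation, fell in 7 of 8 from 333 to 114 CPM (-1.26 ± 0.33, adjusted p = 0.0138). Of 22 genes of gluconeogenesis and glycolysis 1 was called, IGFBP1, the binding protein that insulin represses, which rose in 8 of 8 animals from a median of 139 to 720 CPM (1.48 ± 0.42, adjusted p = 0.0197). In the respiratory chain 0 of 26 were higher and 1 lower, and among complement genes 1 of 22 was higher and 0 lower.

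Of 19 splicing genes 5 rose and none fell (median 0.44), where 9.81% of all genes rose, and SRSF3 and SRSF6, splicing factors, did not overlap between the weeks (0.65 ± 0.09, adjusted p = 0.00133, and 0.79 ± 0.11, adjusted p = 0.00142). Of 26 ribosomal protein genes 4 rose and none fell (median 0.35), 1 without animal 1019, 7 without 1021 and 9 without the animals with muscle biopsies. Their summed share went from 0.609%, 0.649% and 1.02% to 0.734%, 0.868% and 1.27% of gene reads. NEAT1, a long RNA that stays in the nucleus, rose from 216 to 627 CPM at week 15 to 818 to 2828 CPM at week 23 without overlap (1.60 ± 0.20, adjusted p = 0.00119). The entry RN5-8S1, a ribosomal RNA, which libraries selected for poly(A) should hold little of, was at 4.31 to 12.7 CPM and then 16.0 to 115 CPM (2.30 ± 0.22, adjusted p = 0.00055). Both were higher in 8 of 8 animals and were named after their values were seen. Their part in the other changes was not tested.

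The 10 highest changes among called genes that averaged 1 CPM or more were in genes with a mean of at most 18.8 CPM. SLCO1C1, a thyroxine carrier, was at 0 to 0.455 CPM at week 15 and 0.820 to 16.1 CPM at week 23 (4.24 ± 0.36, adjusted p = 0.000388). TTBK1, a tubulin kinase, was at 0 to 1.39 and then 2.08 to 22.7 CPM (3.79 ± 0.52, adjusted p = 0.00142), and LINC00273, a noncoding RNA, at 1.40 to 6.21 and then 9.72 to 62.0 CPM (3.02 ± 0.31, adjusted p = 0.000685). None of the 3 overlapped between the weeks. ST8SIA3, a brain sialyltransferase (3.01), PAQR7, a membrane progestin receptor (2.52), PALM3 (2.49), LOC388242 (3.08), LOC100507657 (2.47) and the intestinal and placental alkaline phosphatases ALPI (2.89) and ALPPL2 (2.49), whose reads may be shared, completed the 10 highest.

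Among the 10 lowest, which also held CYP2B6, ALDH1L1, which oxidises 10-formyltetrahydrofolate, fell from 497, 791 and 1261 CPM to 9.14, 66.5 and 876 CPM in 7 of 8 animals (-3.86 ± 0.77, adjusted p = 0.00477). MAP7D2 was at -3.44, MEP1A, the meprin protease, at -3.35, LOC100652751 at -3.18 and FABP5P3, an entry close to a fatty acid binding protein, at -3.06, all below an adjusted p of 0.05. FIBCD1, an acetyl-binding receptor, was at -3.78 ± 1.34 (adjusted p = 0.0486) and passed the threshold by little. Without 1005, 1008, 1015, 1016, 1019 and 1021 in turn, FIBCD1 was at -3.26, -3.05, -4.13, -3.18, -3.01 and -4.34 and did not pass it.

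The other biopsies of the same 8 animals set these values in sequence. They share samples with the comparison above, so their values are given side by side only. The median of SCD was 178, 613 and 1369 CPM at weeks -3, 0 and 3, then 10760, 12480 and 14305 CPM at weeks 7, 11 and 15, 13614 CPM in the 5 animals with a week 19 biopsy, and 2302 CPM at week 23. ACSS2 was at 83.3, 100.4, 184, 1427, 1546, 1389, 1588 and 372 CPM over the same weeks. The medians of both were thus high from week 7 to week 19 and low before and after. These levels were normalised over all weeks and differ slightly from those of the 2 weeks alone. In the 3 animals without muscle biopsies at weeks 15 and 19, SCD changed by -1.35 ± 1.05 between these weeks (adjusted p = 0.586).

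CYP2B6 had another course, with medians of 69.9 CPM at week -3, 792, 1358, 1661, 1472 and 1105 CPM at weeks 0 to 15, and 124 and 112 CPM at weeks 19 and 23. SOCS3 was at 12.1 CPM at week -3, between 34.3 and 48.2 CPM at weeks 0 to 15, and at 11.6 and 10.5 CPM at weeks 19 and 23. Weeks 0 to 15 are those with dosing, and the part of dosing in these courses was not tested. NPAS2 was at 11.3, 27.7, 7.24, 3.23, 2.84, 2.38, 5.21 and 13.9 CPM, and was lowest at week 15. CD79A stayed between 2.29 and 4.40 CPM from week -3 to week 19 and was at 7.47 CPM at week 23, and LINC00273 stayed between 2.61 and 5.80 CPM and then was at 28.6 CPM. NEAT1 and RN5-8S1 were also highest at week 23.

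**Figure D4:**
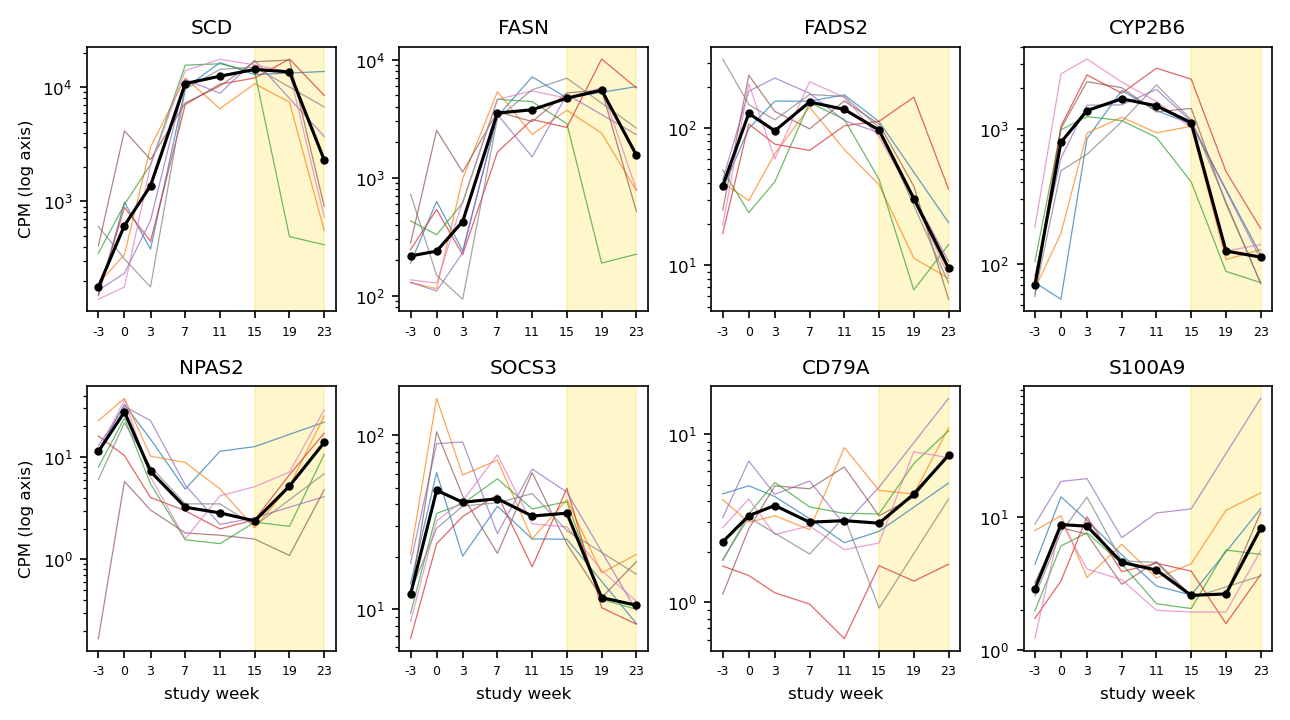
Levels of 8 genes (CPM, log axis) in the biopsies of the 8 placebo animals from week -3 to week 23, with 1 thin line per animal, 5 animals at week 19, the median in black and weeks 15 to 23 shaded. The median of SCD is high from week 7 to week 19, that of CYP2B6 from week 0 to week 15, and that of CD79A is highest at week 23.

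Between neighbouring weeks, 307 genes were called from week -3 to 0 (2.1% of those tested), 2 from 0 to 3 (0.0135%), 1180 from 3 to 7 (7.93%), 1 from 7 to 11 (0.00676%) and 0 from 11 to 15 (0%). An unadjusted p under 0.05 was reached by 2949, 2742, 5446, 1418 and 1031 genes, and DESeq2 called 823, 629, 2024, 62 and 17. From week 7 to week 15, an interval as long as that from 15 to 23, edgeR called 105 genes (0.703%) and DESeq2 250. In the 5 animals with a week 19 biopsy, 9 genes were called from week 15 to 19 (0.0615%), and 1992 had an unadjusted p under 0.05. CYP2B6 was among the 9, at -2.62 (adjusted p = 0.0166), and was at -2.52 (adjusted p = 0.104) in the 3 animals without muscle biopsies.

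From week -3 to week 23, the ends of the series and both outside the dosing period, edgeR called 0 genes (0%), while 2643 had an unadjusted p under 0.05 and DESeq2 called 889. Muscle was widespread in these other biopsies. Of the 8 animals 3, 3, 7, 4 and 6 passed 100 CPM of MYH2 at weeks -3, 0, 3, 7 and 11, and 1 of 5 did at week 19. In 1 biopsy of week -3 the hepatocyte genes took only 0.0371% of the gene reads. Without the animals with such biopsies 4 genes were called from week -3 to 23 (5 animals), 761 from -3 to 0 (3 animals) and 1 from 15 to 19 (3 animals).

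**Figure D5:**
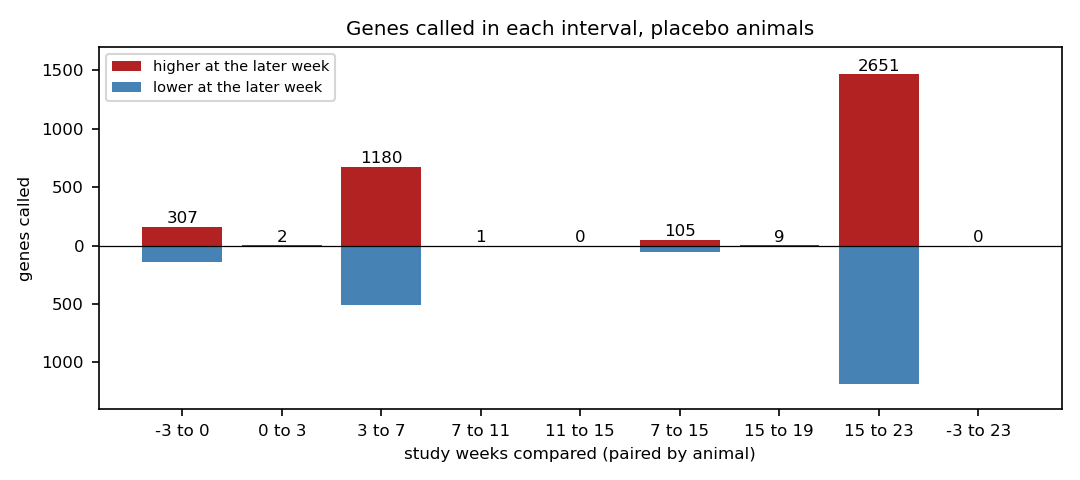
Number of genes called higher (upward bars) and lower (downward bars) in each interval between biopsies of the placebo animals, paired by animal, with the total above each bar. The interval from week 15 to week 23 has 1468 higher and 1183 lower, and that from week 3 to week 7 has 1180 in all.

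The same weeks were compared in the 6 wIFN-α animals with both biopsies, in which interferon treatment also ended after week 15. These animals share no sample with the placebo animals. Of 14748 genes tested in them 3529 were called (23.9%), 1590 higher (10.8%) and 1939 lower (13.1%). Of the 2567 genes called in placebo animals and tested in wIFN-α animals, 635 were called the same way, 178 the opposite way and 1754 were not called. The test of the difference between the changes called 4608 of 15520 genes (29.7%). It held no term for a change that differs by sex. In both agents 3 week 15 biopsies and no week 23 biopsy held muscle.

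The change in fatty acid synthesis genes differed between the agents. In wIFN-α animals 6 of the 18 rose and none fell (median 0.54), and in 16 of 18 the change was higher than in placebo animals by the test of the difference (of all genes 2204, or 14.2%, were higher in this test). SCD in wIFN-α animals was at 5678, 10883 and 14081 CPM at week 15 and at 3440, 15250 and 25593 CPM at week 23 (log2 change 0.26, adjusted p = 0.547), a difference between the agents of 3.05 ± 0.85 (adjusted p = 0.0141). FADS2 differed by 1.90 ± 0.51 (adjusted p = 0.0116). CYP2B6 fell in both, by 1.49 in wIFN-α animals (adjusted p = 0.0324), and the fall was smaller there by 1.90 ± 0.51 (adjusted p = 0.0110).

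Immune genes were also compared between the agents, where 15.5% of all genes had a lower change in wIFN-α animals. Of the T cell genes 12 of 20, of the cytotoxic and NK cell genes 10 of 14 and of the B and plasma cell genes 8 of 11 had a lower change there than in placebo animals, and none a higher one. Of the neutrophil genes 6 of 11 had a lower change and none a higher one, and of the Kupffer cell and macrophage genes 4 of 16 had a lower and 1 a higher change. CD79A was at 1.88, 4.81 and 7.03 CPM at week 15 and at 1.97, 4.18 and 9.31 CPM at week 23 in wIFN-α animals, which differed from the placebo change by -1.39 ± 0.42 (adjusted p = 0.0219). Of 35 interferon-stimulated genes 34 fell in wIFN-α animals. RSAD2 fell there from a median of 3574 to 21.5 CPM, a difference from placebo of -7.44 ± 0.19 (adjusted p = 4.4e-13), and at week 23 it was between 19 and 25.5 CPM, within the range of the placebo biopsies.

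RN5-8S1 and NEAT1 rose in wIFN-α animals by 2.38 (adjusted p = 0.00146) and 1.55 (adjusted p = 0.000823), with differences from placebo of 0.07 ± 0.46 (adjusted p = 0.926) and -0.05 ± 0.32 (adjusted p = 0.925). LINC00273 rose by 2.53 (adjusted p = 4.44e-05) and SULT1A1 by 0.90 (adjusted p = 0.000482). KLF9, SERPINA7, NPAS2 and ALDH1L1 did not pass the test in wIFN-α animals (0.04, 0.18, -0.29 and -0.14), and their changes differed between the agents (1.10 ± 0.21, -1.07 ± 0.26, -2.26 ± 0.49 and 3.71 ± 0.93, adjusted p = 0.00119, 0.00652, 0.00283 and 0.00757).

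The change did not pass the test of a difference between the sexes in any gene by edgeR (0 of 14966, 0%), while 448 had an unadjusted p under 0.05 and DESeq2 called 4. The 5 genes with the lowest unadjusted p were FADS2, CLEC10A, C12orf33, MIR22HG and ARRDC3, each with an adjusted p of 1. FADS2 fell less in males, with a female minus male difference of -1.64, and CLEC10A, a macrophage lectin, had a difference of 2.49. With 4 animals of each sex only large differences could have been found.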

How the data were processed

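The authors sequenced TruSeq libraries of poly(A) RNA on an Illumina instrument, mapped reads to their woodchuck transcriptome assembly and counted them. The submitters' processing notes name CASAVA, FastQC, Bowtie2, SAMtools and DESeq, with versions not given in the sources used here. The deposited values used here are estimated counts per gene, not normalized, of which 118 of 3368023 nonzero entries were fractions. RPKM values were deposited as well and served here only as a check of the unit. Genes are given by human-style symbols without coordinates. No sequence is shown, since a genome or sequence table of this assembly was not used here.

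Runs of a biopsy were summed and rounded. The virus entry (1.11% to 3.17% of gene reads) entered neither the library sizes nor the tests. The main tests were those of edgeR 4.0.16, run in R 4.3.3 (filterByExpr, TMM normalization, quasi-likelihood test, Benjamini-Hochberg adjustment over all genes tested), with the animal as a term. Adjusted p-values are edgeR's unless another tool is named. SE was derived as the absolute log2 fold change divided by the square root of the F statistic of its test. Genes with an adjusted p under 0.05 that also changed by over 1.5-fold were called, and a difference between changes at an adjusted p under 0.05. CPM values are counts per 1000000 normalised gene reads. Depths were 14739824 to 52927321 gene reads, and the median SE over genes was 0.141 on the log2 scale. The paired test and the test of sex were also run on simulated counts, with the same dispersion in all genes and no other tissue. Those runs do not show how the tests behave on biopsies that hold muscle.

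The 2 biopsies of an animal pair by design. After the mean of each week was removed, they correlated across genes at a median of 0.346 (0.194 to 0.570, 8 of 8 above 0.1), against -0.05 between animals.

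The members and the 42 gene lists were chosen with earlier results of these data known, and the lists come from general knowledge. Lists are described by counts and medians, with no test of a list. Named genes were the 10 highest and 10 lowest changes among calls that averaged 1 CPM or more, the 4 called members of each list with the largest change (for a list with none, the 2 of lowest p), MYH2 (the 100 CPM limit for muscle), and the 5 of lowest p in the tests of sex and agent. Results of 4 named genes are not reported here. Genes listed only to spell out a count were named after their values were seen.

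Alternatives used DESeq2 1.42.0, limma-voom (limma 3.58.1), RLE or library size normalization, no filter, the deepest or a single run, no animal term, all weeks in 1 fit, a fold change above 2, and animals left out. Shares and permutation tests used Python 3.11.15 with numpy 2.4.6 and pandas 2.3.3. The p-values measure the spread between animals.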

Additional observations from a re-analysis of the deposited data

Results flagged for a closer look

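In 129 named genes the change of each of the 8 placebo animals was tested for a value far from the others by Dixon's criterion, and 7 genes had one. Chance alone flags about 1 in 20 such groups. The log2 changes were -0.46 for CTLA4 in animal 1011 (median of the other animals 0.90), -2.17 for DSP, a desmosome gene, in 1021 (-0.57), 1.81 for EOMES in 1015 (0.64), 4.77 for IGFBP1 in 1019 (1.14), 2.49 for SERPINA7 in 1021 (1.06), -2.86 for UGT2B15 in 1005 (-0.81) and -2.39 for USP2 in 1019 (-1.28). The log2 ratio of WHV reads was 1.41 in 1021 against a median of -0.14. The week 15 biopsies of 1011, 1015 and 1021 held muscle. In 1021 the genes of skin and squamous epithelium, among them DSP, took 0.253% of gene reads at week 15 and 0.00835% at week 23. The part of either tissue in these values was not tested.

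The change from week 15 to week 23 differed between wIFN-α and placebo animals in 4608 genes by edgeR. Of 39 leading genes of the lists and of this test, 21 differed, where 29.7% of all genes did. The 5 of lowest p in this test differ by their choice. The others were chosen for their change in placebo animals, so that the count of 21 is no test. The change was lower in wIFN-α animals, on the log2 scale, by -1.82 in CLEC4M, a lectin of liver sinusoids, -1.74 in CTLA4, -1.97 in EOMES, -1.05 in DHX58, -1.87 in LAG3, an inhibitory receptor, -2.26 in NPAS2, -3.41 in FGF21, a fasting hormone of the liver, -2.54 in SAA2 and -1.07 in SERPINA7. The 5 with the lowest p, 4 of them genes of the interferon response, had -7.44 (RSAD2), -6.51 (IFIT2), -3.25 (PPBP, a platelet chemokine), -2.63 (TRAFD1) and -5.40 (IFIT1). The change was higher in wIFN-α animals by 1.27 in CCNE1, 1.75 in CTGF, a matrix growth factor, 0.72 in HSPD1, 1.90 in CYP2B6, 1.72 in KLB, 1.90 in FADS2 and 1.51 in OAT, which breaks down ornithine.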

How the results depend on the processing

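The count of 2651 called genes lay between 2557 and 2930 under other tools, normalizations, filters and runs, and at 797 with a fold change above 2. Without single animals it was 1978 (without 1019) to 3065 (without 1001), the sex count 0 to 0 and the count that differed between agents 3553 to 4900. With no replicate block, that is without the animal pairing, 2183 genes were called, and 4 of the 18 fatty acid synthesis genes fell, while 6 T cell, 5 cytotoxic and NK cell, 4 neutrophil and 1 Kupffer cell and macrophage genes rose. With library size alone 1699 genes were higher and 961 lower, against 1468 and 1183, and the median of all genes was 0.07 in place of 0.01.

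Of 133 named genes, 70 were called in each of the 19 settings in which they were tested. A few named genes did not pass the filter on low counts in some settings. In 1 the sign turned, MYH2, at 0.48 without the animals with muscle biopsies, where WHV RNA turned to -0.12.

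DESeq2 called more genes than edgeR in the intervals between other weeks: 823 from week -3 to 0, 629 from 0 to 3, 2024 from 3 to 7, 62 from 7 to 11, 17 from 11 to 15, 250 from 7 to 15, 889 from -3 to 23, 198 from 15 to 19, and 4 in the test of sex. Without the animals with muscle biopsies 761 were called from -3 to 0, 4 from -3 to 23 and 1 from 15 to 19. The other intervals kept too few such animals and were not run. The cause of these moves was not tested.

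In wIFN-α animals 2402 genes were called without those with muscle biopsies (3 animals left). Counts without muscle biopsies in other intervals and in wIFN-α animals, DESeq2 in the intervals, list counts under other settings and the settings of WHV RNA were chosen after seeing the data. Genes near 1 CPM rest on few reads.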
